A study of Rattus norvegicus with 6 samples.

Results

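Cathepsin K (Ctsk), cathepsin L (Ctsl), cystatin B (Cstb), Reck and Mmp23, 3 proteases and 2 protease inhibitors, were described in rat esophageal tumor cell lines. They were taken as every spot of the array whose platform gene symbol was one of these 5, which gave 22 of 16128 spots, 11 of 8064 cDNA clones and 5 of 3158 named genes. The tumor cell lines JA, JB and Amy, each labelled as from a reflux-induced esophageal tumor, were each compared with the same pool, an equal mixture of 2 normal esophageal cell lines labelled Normal1 and Normal2. Total RNA of a line and of the pool was hybridised together on 2-colour cDNA arrays, 2 arrays per line, with the line in Cy3 and the pool in Cy5 on the first and the dyes exchanged on the other. Both arrays of a line share its RNA, and a line therefore counts as 1 replicate (n = 3 lines) and the pool as a single control sample. The labels used here give no strain, sex, age or passage. Squamous identity could not be checked, since of 25 squamous markers looked up only galectin-7 (Lgals7) was a named gene on the array and ratios give no absolute level.

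Cysteine cathepsins are proteases that work mainly in lysosomes. Cathepsin K is best known for the breakdown of collagen and elastin, above all in osteoclasts, and cathepsin L for general protein turnover in lysosomes. Cystatin B is an inhibitor of cysteine cathepsins inside the cell. Reck is a membrane-anchored glycoprotein that inhibits several matrix metalloproteases (MMPs), and Mmp23 is an MMP held in the membrane until it is cleaved.

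The stretches around the gene starts are shown because the genes moved in 1 direction while their windows differ in composition. The windows run from 250 bases before to 50 after the start, 300 bases each, as given by RefSeq for build GRCr8, in which all 5 genes were found by gene identifier. Capitals mark 4 letter runs searched on both strands, of which no matches overlapped: GGGCGG as bound by Sp factors, CACGTG as bound by helix-loop-helix factors, the TATA-box run TATAAA, and the run CCAAT of CCAAT boxes. The lines give Ctsk (chr2:185747298-185747597, plus strand), Ctsl (chr17:769854-770153, plus strand), Cstb (chr20:10247150-10247449, minus strand) and Reck (chr5:62898467-62898766, plus strand), each 5′ to 3′ on the strand of the gene.
Ctsk: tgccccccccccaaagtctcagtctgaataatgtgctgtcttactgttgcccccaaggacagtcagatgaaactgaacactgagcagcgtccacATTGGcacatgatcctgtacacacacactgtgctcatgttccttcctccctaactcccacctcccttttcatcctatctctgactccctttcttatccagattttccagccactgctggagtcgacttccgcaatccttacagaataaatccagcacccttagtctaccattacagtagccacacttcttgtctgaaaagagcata
Ctsl: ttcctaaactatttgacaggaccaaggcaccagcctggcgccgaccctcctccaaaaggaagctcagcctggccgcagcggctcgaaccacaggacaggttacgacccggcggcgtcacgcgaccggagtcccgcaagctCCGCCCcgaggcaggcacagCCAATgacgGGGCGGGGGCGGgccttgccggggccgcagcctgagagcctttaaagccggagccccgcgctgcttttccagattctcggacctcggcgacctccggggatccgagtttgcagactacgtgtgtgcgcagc
Cstb: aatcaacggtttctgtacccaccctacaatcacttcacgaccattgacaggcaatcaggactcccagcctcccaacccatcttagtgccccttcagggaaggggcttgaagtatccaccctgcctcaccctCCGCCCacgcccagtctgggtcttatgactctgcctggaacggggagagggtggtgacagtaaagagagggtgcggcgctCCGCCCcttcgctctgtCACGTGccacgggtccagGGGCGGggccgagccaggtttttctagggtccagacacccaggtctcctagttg
Reck: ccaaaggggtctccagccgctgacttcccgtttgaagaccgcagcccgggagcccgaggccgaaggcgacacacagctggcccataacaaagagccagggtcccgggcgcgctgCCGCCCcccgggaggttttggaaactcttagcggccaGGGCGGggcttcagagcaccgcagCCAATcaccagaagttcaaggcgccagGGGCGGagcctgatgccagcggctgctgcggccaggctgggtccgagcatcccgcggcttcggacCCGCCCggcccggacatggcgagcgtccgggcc
The Ctsk window held no GGGCGG and 48.3% G and C, while the Reck window held 4 GGGCGG matches and 70.3% G and C. The Ctsl and Cstb windows held 3 GGGCGG matches each, and the window of Mmp23 (chr5:171524485-171524784, minus strand) held 2. Of 33469 windows of the same length, 33.1% held GGGCGG on either strand, and their median share of G and C was 51.7%. CACGTG was found in the Cstb window alone among the 5, starting at -22 from the gene start, and in 6.42% of all windows. CCAAT was found once each in the Ctsk, Ctsl and Reck windows and in 37.5% of all windows, and TATAAA in none of the 5, against 14.2% of all. A match is a description of the letters only.

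Ratios are given as log2 of tumor line over normal pool. The base and the direction were not stated with the values. Base 2 was taken because the lowest value, -12.7, would exceed a scanner's range in base 10, and the direction from the order of names in the sample titles, so it is likely rather than settled. With the opposite direction every sign, and each higher or lower, would turn. On each array, duplicate spots of a clone had a correlation of 0.907 to 0.949, and across features the dye-swapped arrays of a line had one of 0.815 to 0.888. The median of all 7180 features (3158 genes and 4022 clones without a single gene name) was -0.12, and each ratio below can be read against it. No spot intensities were used, so a large ratio cannot be told from a bound set by a dim channel. In RNA from whole cultures, fewer cells of a type and less RNA per cell cannot be told apart.

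All 5 genes were below 0 on all 6 arrays. Because they were chosen on this same contrast, their ratios are a description with no test, and nothing is read from the share of all 7180 features called in the lines by limma, 53.5% in either direction and 32.8% lower. Ctsk, Reck and Mmp23, 3 of the 5, lay at or below -1 on every array, as did 8.12% of all features and 8.93% of named genes. The means of the 5 genes ran from -4.20 for Reck to -0.68 for Cstb.

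**Figure D1:**
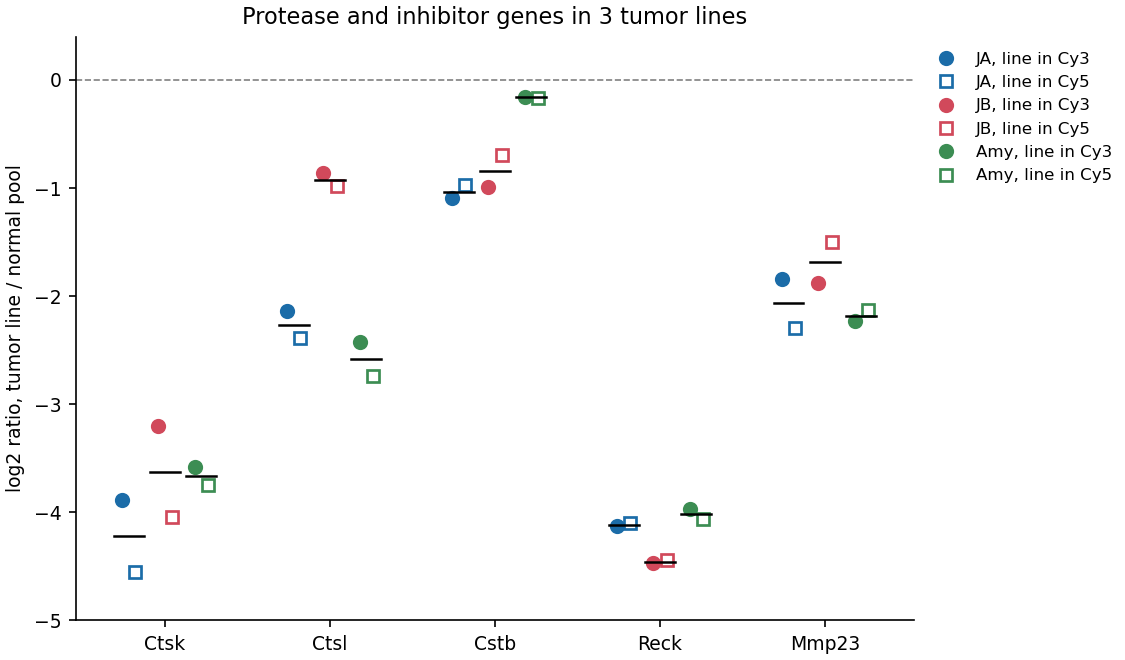
Log2 ratio of tumor line over normal pool (vertical axis) for each of the 5 genes (horizontal axis). Filled circles are arrays with the line in Cy3, open squares arrays with the line in Cy5, and black bars the mean of a line; the dashed line marks equal signal. Reck and Ctsk lie lowest, and JB stands above JA and Amy in Ctsl.

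Ctsk, measured by 1 clone, stood at -3.88 and -4.56 in JA, -3.21 and -4.05 in JB, and -3.58 and -3.75 in Amy (line in Cy3, line in Cy5). Its mean was -3.84 ± 0.33 (SD, n = 3 lines), or 14.3-fold lower in the lines. JA was the lowest line in both dye orientations, by at least 0.31, though its duplicate spots lay 0.63 apart with the line in Cy5, at -4.87 and -4.24. The order of JB and Amy changed with the dye, so these neighbours do not differ beyond their spread. The ratio was lower with the line in Cy5 in all 3 lines, by 0.56 ± 0.35 on average.

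Ctsl was the gene on which the lines differed most. Over its 5 clones it stood at -2.14 and -2.39 in JA, -0.86 and -0.98 in JB, and -2.43 and -2.74 in Amy. JB was thus less reduced than both other lines, by 1.28 and 1.41 over JA and by 1.57 and 1.76 over Amy in the 2 orientations. Amy was below JA by 0.29 and 0.35. The mean, -1.92 ± 0.88 (SD, n = 3 lines), or 3.79-fold lower, therefore stands for no single line. A line set apart from both others by at least 1 in each orientation, as JB was for Ctsl, was seen in 2.77% of all features for any line. On the higher side the share was 0.0696% for JA, 1.3% for JB and 0.306% for Amy, and on the lower side 0.292%, 0.696% and 0.195% for the same lines. Among the 5 genes it was seen for Ctsl only. With 1 RNA sample per line this difference has no replicate and was not tested.

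The clones of Ctsl agreed closely in 4 of 5 cases. In clones 1 to 4 the line means ran from -2.46 to -2.37 in JA, from -0.91 to -0.83 in JB and from -2.86 to -2.72 in Amy. Each of these clones placed JB at least 1.41 above both other lines in both orientations. Clone 5 differed: its line means were -1.69 for JA, -1.11 for JB and -1.75 for Amy, with a smallest gap of 0.34 between JB and the others. It was also the clone that moved with the dye, lower with the line in Cy5 by 0.99 in JA, 0.54 in JB and 0.80 in Amy. The range of clone means, 0.56, was below the median of 0.75 for the 156 genes with 3 or more clones. The platform gave all 5 clones the same accession, so whether they cover different parts of the transcript was not analysed here.

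**Figure D2:**
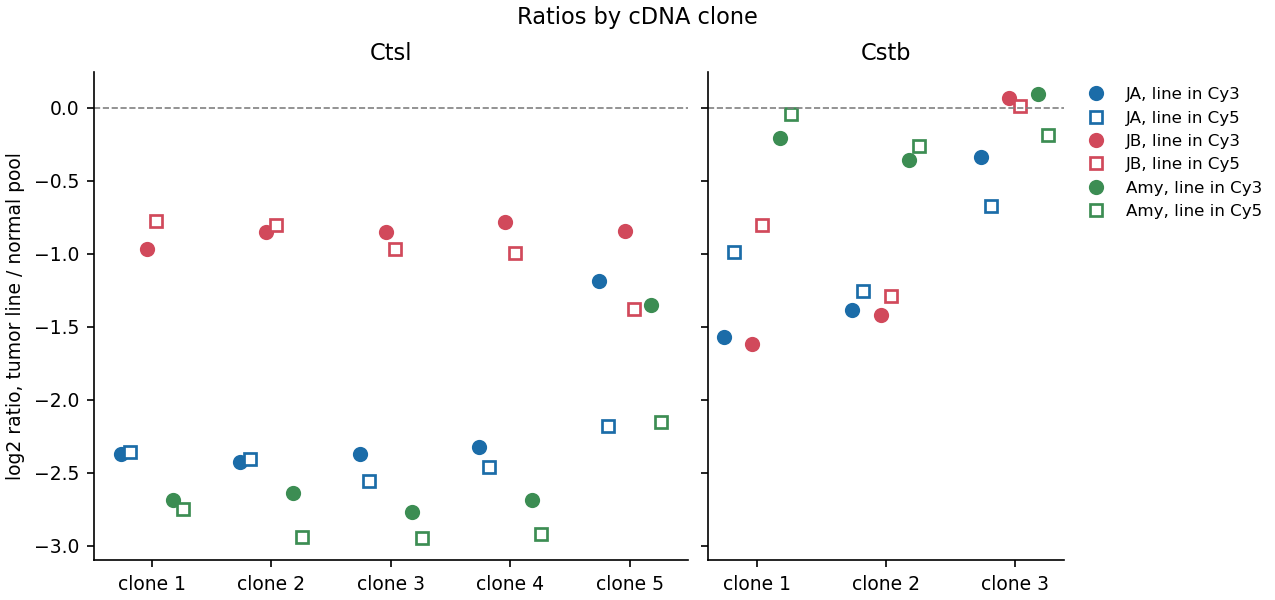
Log2 ratio of tumor line over normal pool (vertical axis) for each clone (horizontal axis) of Ctsl (left) and Cstb (right), each point the mean of 2 duplicate spots on 1 array. Clones 1 to 4 of Ctsl give the same picture, with JB near -0.9; clone 5 of Ctsl and clone 3 of Cstb stand apart from the other clones of their gene.

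Mmp23, measured by 1 clone, stood at -1.84 and -2.30 in JA, -1.87 and -1.50 in JB, and -2.23 and -2.13 in Amy. The mean was -1.98 ± 0.26 (SD, n = 3 lines), or 3.94-fold lower in the lines. The arrays of the lines overlapped: in the Cy3 orientation JA and JB were 0.04 apart, and in the Cy5 orientation JB was the highest. JB stood above Amy in both orientations, by 0.36 and 0.63, while the place of JA changed with the dye.

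Of the 2 inhibitors, Reck was the lower, and its mean was the lowest of the 5 genes. Its single clone stood at -4.13 and -4.10 in JA, -4.47 and -4.44 in JB, and -3.97 and -4.06 in Amy. The mean was -4.20 ± 0.23 (SD, n = 3 lines), or 18.3-fold lower in the lines. JB was the lowest line in both orientations, by at least 0.34. Its duplicate spots stood at -4.29 and -4.65 with the line in Cy3 and at -4.59 and -4.30 with the line in Cy5, all below every spot of JA and Amy. Amy was above JA by 0.16 and 0.04, and their spots overlapped with the line in Cy5. The dye mattered little, with a difference between orientations of -0.01 ± 0.07.

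Cstb was the least reduced, and its lines were ordered unlike those of Ctsl. It stood at -1.10 and -0.97 in JA, -0.99 and -0.69 in JB, and -0.16 and -0.16 in Amy, with a mean of -0.68 ± 0.46 (SD, n = 3 lines), or 1.60-fold lower. Amy was thus close to the pool and above both other lines by at least 0.53 in each orientation, while JA lay below JB by 0.11 and 0.28. The place of Amy came from 2 of its 3 clones, and the order of JA and JB mainly from clone 3. In clone 3, JB stood above JA by 0.40 and 0.69. The same difference was -0.05 and 0.19 in clone 1, and -0.03 and -0.03 in clone 2. Clone 1 averaged -1.28 in JA, -1.21 in JB and -0.13 in Amy, and clone 2 averaged -1.32, -1.35 and -0.31 in the same lines. Clone 3 averaged -0.50 in JA, 0.04 in JB and -0.05 in Amy, so that with this clone alone the mean was -0.17 and Amy was not apart from JB. The range of clone means was 0.82, wider than in 83 of the 156 genes with 3 or more clones.

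Set side by side, the changes of the cathepsin and of its inhibitor differed by line. The log2 ratio of Ctsl minus that of Cstb was -1.23 in JA, -0.08 in JB and -2.42 in Amy. In JB its sign turned with the dye, at 0.13 with the line in Cy3 and -0.29 with the line in Cy5. These differences join all clones, with clone 5 of Ctsl and clone 3 of Cstb among them. In JB clone 3 of Cstb averaged 0.04, against -1.21 and -1.35 in clones 1 and 2, so size and sign there depend on the clones averaged. The difference compares changes against the pool, not levels of the transcripts. For Ctsk the same difference to Cstb was -3.19 in JA, -2.79 in JB and -3.50 in Amy, with the lines much closer together.

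The difference between dye orientations was not used to choose the genes, and was tested across all features (limma on the Cy5 minus Cy3 difference of each line, two-sided, Benjamini-Hochberg). It passed at an adjusted p under 0.05 for 0 of the 5 genes, against 0.501% of all features. At an unadjusted p under 0.05 in limma, 1 of the 5 passed, Ctsk, against 35.3% of all features. The adjusted p in limma were 0.100 for Ctsk, 0.182 for Ctsl, 0.413 for Cstb, 0.950 for Reck and 0.979 for Mmp23. With any 1 line left out, 0 features passed, so the test was weak and does not show that these ratios were free of a dye effect. The difference may also depend on the mean for low genes, since the lowest values were -12.7 to -12.1 on arrays with the line in Cy5, against -9.57 to -8.76 with the line in Cy3.

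The other genes of protease control were drawn from 9 lists, of which 69 genes besides these 5 were measured. In the test of the 3 lines against the pool (limma, Benjamini-Hochberg over 7180 features, adjusted p under 0.05), 29 were lower and 10 higher, while 30 did not pass the threshold. Their median log2 ratio was -0.27. Over all features 32.8% were lower and 20.7% higher, and the median was -0.12. Without JA, 18 of the 69 were lower and 8 higher, and over all features 1367 were lower and 709 higher. With arrays centred on their medians, 23 of the 69 were lower and 12 higher, and over all features 2009 were lower and 1824 higher, against 2356 and 1487 as deposited. Of the 34 protease genes named by the rule given below, 25 were measured by 1 clone, Prss23 among them. For these the SD over lines says nothing on agreement between clones.

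Among the cathepsins and other lysosomal peptidases 3 of 7 were lower and 1 was higher (median -0.74). Cathepsin D (Ctsd), the main aspartic protease of lysosomes, was lower at -1.73 ± 0.83 (adjusted p = 0.00851 in limma), with JB the least reduced at -0.90, against -2.55 in JA and -1.75 in Amy. Its call was lost without Amy (limma adjusted p = 0.0518), though its mean hardly changed, at -1.72. The aspartic protease cathepsin E (Ctse) was lower at -1.61 ± 0.42, and the carboxypeptidase Prcp at -1.23 ± 0.52. The call of Prcp was lost without JA (limma adjusted p = 0.0660), where its mean was -1.18. Its 3 clones stood at -2.56, -1.12 and -0.02. Cathepsin H (Ctsh), an aminopeptidase, was the only one of the list that was higher, at 1.00 ± 0.45 (limma adjusted p = 0.0104). Cathepsin B (Ctsb), at 0.11 ± 0.06 with both clones alike, and the tripeptidyl peptidase Tpp1, at -0.15 ± 0.40, did not pass. The sign of Ctsb turned with the dye in all 3 lines, with means of -0.17 (line in Cy3) and 0.40 (line in Cy5). The dipeptidyl peptidase cathepsin C (Ctsc), at -0.74 ± 0.69, did not pass either (limma adjusted p = 0.0685). It passed in limma at an adjusted p of 0.0307 when Amy was left out, 0.0478 on the Cy3 arrays of the lines alone and 0.0323 with the replicate block.

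Of the cystatin list only 2 genes besides Cstb were measured, and none passed. The secreted inhibitor cystatin C (Cst3) averaged 0.09 ± 0.03, but this mean joined clones that disagreed: 2 stood at -1.51 ± 0.18 and -1.06 ± 0.18 and the third at 2.86 ± 0.43 (SD, n = 3 lines). With the median over spots in place of the mean, Cst3 was called lower at -1.02 (limma adjusted p = 0.00306). Fetuin-A (Ahsg) averaged 0.04 ± 0.44.

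The inhibitors of metalloproteases did not move together. While Reck stood at -4.20, Timp3 was higher at 1.28 ± 0.58 (limma adjusted p = 0.00868) and Timp2 at 0.97 ± 0.10 (0.00248), both secreted MMP inhibitors. The call of Timp3 was lost without JA (limma adjusted p = 0.0689), though its mean hardly changed, at 1.25. Timp1 averaged 0.19 ± 0.71 and did not pass, with 0.69 in JA, 0.51 in JB and -0.61 in Amy. The plasma inhibitor alpha-2-macroglobulin (A2m) and the coagulation inhibitor Tfpi were lower at -1.01 ± 0.06 and -1.15 ± 0.49. Among the MMPs besides Mmp23, Mmp11 (stromelysin-3) was lower at -1.34 ± 0.15 (limma adjusted p = 0.00116), with clones at -2.07, -1.70 and -0.27. Mmp13, a collagenase, averaged 0.15 ± 0.34 and did not pass.

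**Figure D3:**
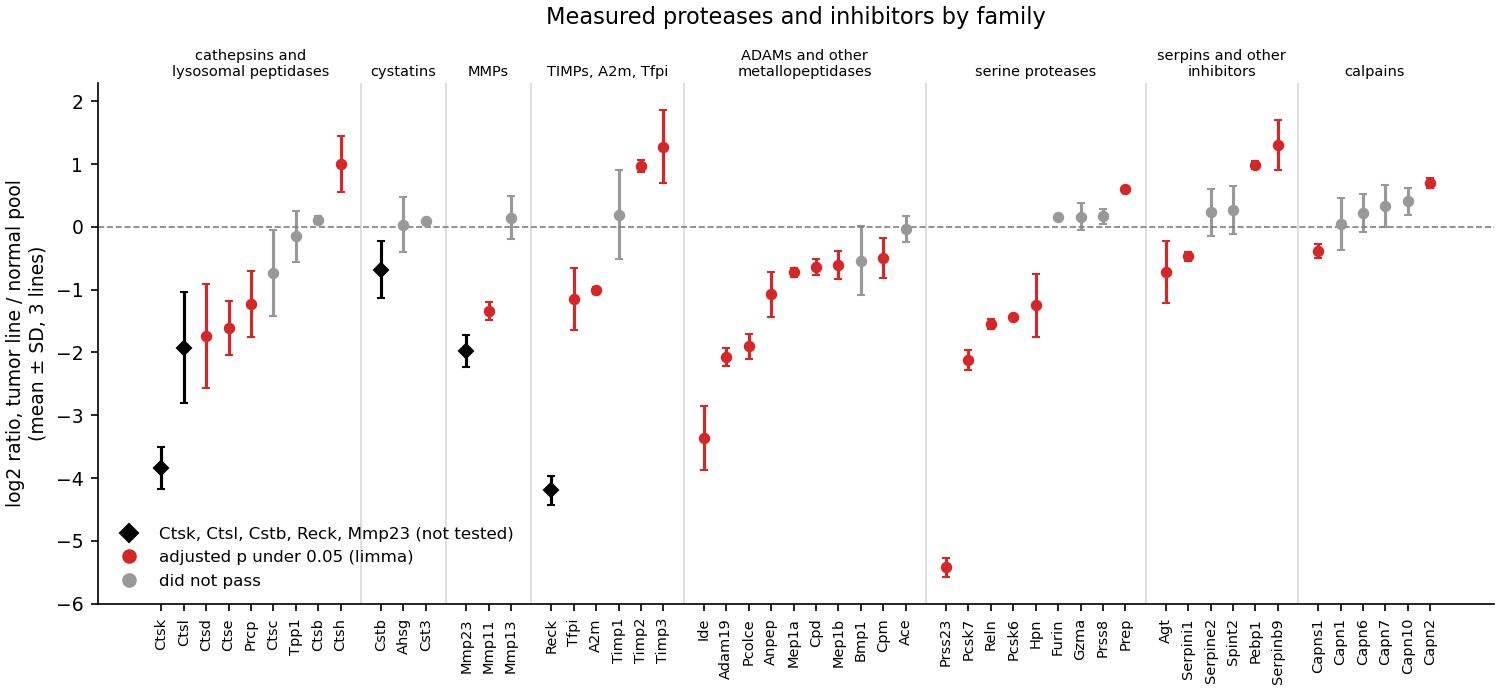
Mean log2 ratio of tumor line over normal pool with SD over 3 lines (vertical axis) for the measured proteases and inhibitors by family (horizontal axis); the lysosome list is not drawn. Red points passed at an adjusted p under 0.05 in limma, grey points did not, and black diamonds are the 5 genes chosen on this contrast and not tested. Reck lies far below 0, and Timp2 and Timp3 above it.

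In the list of ADAMs and other metallopeptidases 8 of 10 were lower and none was higher (median -0.68). When only the Cy3 arrays of the lines were used, 5 were lower. In that setting the lower calls over all features went from 2356 to 2136. The lowest of the list was the insulin-degrading enzyme (Ide) at -3.36 ± 0.51, followed by Adam19 at -2.07 ± 0.14, the procollagen proteinase enhancer Pcolce at -1.90 ± 0.20 and the aminopeptidase Anpep at -1.07 ± 0.35. The clones of Anpep disagreed, at -2.84, -0.72 and 0.34, and its call was lost when only the Cy3 arrays of the lines were used (limma adjusted p = 0.0591). Among serine proteases, a list that again holds Prcp, 6 of 10 were lower and 1 was higher (median -1.24). The higher one, the prolyl peptidase Prep at 0.60, was named after its value was seen, and its call was lost without JA (limma adjusted p = 0.0604). Prss23 stood at -5.42 ± 0.15, below all 5 genes described here, followed by the proprotein convertase Pcsk7 at -2.12 ± 0.15. Reelin (Reln), a secreted matrix protein with serine protease activity, stood at -1.55 ± 0.08, and the proprotein convertase Pcsk6 at -1.43 ± 0.01. The single arrays of Pcsk6 ran from -1.64 to -1.22. The 2 clones of Reln stood at -2.17 and -0.92.

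Serpins and other inhibitors were split, with 2 of 6 higher and 2 lower (median 0.25). The granzyme B inhibitor Serpinb9 was higher at 1.31 ± 0.40 and Pebp1 at 0.98 ± 0.07. Angiotensinogen (Agt) at -0.72 ± 0.49 and the neuronal inhibitor Serpini1 at -0.47 ± 0.07 were lower. Neither call held each time a line was left out. Agt was lost without JB (limma adjusted p = 0.0814) or Amy (0.165), and Serpini1 without JA (0.106) or Amy (0.0834). The mean of Serpini1 hardly changed, at -0.43 without JA and -0.47 without Amy. Centring the arrays also ended the call of Agt (limma adjusted p = 0.0651). Of 6 calpain genes Capn2 was higher at 0.70 ± 0.08 and the small subunit Capns1 lower at -0.38 ± 0.12 (median 0.28). The call of Capns1 was lost without JA (limma adjusted p = 0.168), JB (0.0536) or Amy (0.165), and with centred arrays (0.104).

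Cathepsins reach the lysosome through mannose phosphate receptors, and 22 lysosome genes were measured, 7 lower, 3 higher and 12 not passing (median -0.24). The 7 lower calls became 2 without JA and 4 with centred arrays. In the same settings the lower calls over all features went from 2356 to 1367 and to 2009. Both mannose phosphate receptors were higher, Igf2r at 1.54 ± 0.31 and M6pr at 1.09 ± 0.30. M6pr was named after its value was seen. The alpha-galactosidase Gla was higher at 1.43 ± 0.21. The sphingomyelinase Smpd1 and the GM2 activator Gm2a were lower at -1.70 ± 0.09 and -1.49 ± 0.28, with clones between -1.79 and -1.61 for Smpd1 and between -1.69 and -1.34 for Gm2a.

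Most measured markers of fibroblasts, leukocytes, muscle and endothelium were lower, the direction of Ctsk and Reck, while those of macrophages and columnar cells were not all so. Over all features 32.8% were lower and 20.7% higher. Of 13 measured fibroblast markers 11 were lower and 1 higher, with a median of -2.72 in JA, -3.03 in JB and -3.32 in Amy. The higher one was Col6a2 at 1.06 ± 0.31, and Fn1, at 0.53 ± 0.68, did not pass. Of 5 macrophage and osteoclast markers 3 were lower and 1 higher, with a median of -1.29 in JA, -1.29 in JB and -1.45 in Amy. Csf1r, the receptor that defines these cells, stood at -3.57 ± 0.11, Lyz2 at -2.48 ± 0.31 and Fcgr1a at -1.34 ± 0.09, whereas Tyrobp was higher at 0.67 ± 0.14 and Mrc1, at 0.39 ± 0.19, did not pass. The osteoclast markers Acp5 and Calcr were not among the measured named genes. Of 7 leukocyte markers 6 were lower and none was higher, with a median of -3.84 in JA, -3.44 in JB and -3.83 in Amy. All 4 muscle and all 3 endothelial markers were lower, with medians of -3.68 and -1.53 over the lines, as was the only squamous marker, Lgals7, at -5.82 ± 1.01. Of 3 columnar markers 1 was higher and none was lower (median 0.41). The part of these cell types in the ratios of the 5 genes was not tested.

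The named genes nearest to each of the 5 over the 6 arrays, by the root mean square difference of log2 ratios, are given as a description. Nearest to Ctsk was the extracellular superoxide dismutase Sod3, with a difference of 0.33, then Ndrg2 at 0.36 and the lipid phosphatase Plpp3 at 0.45. Nearest to Reck were the stress protein Sesn1 at 0.20, matrix Gla protein (Mgp) at 0.27 and the sphingosine phosphate receptor S1pr1 at 0.35. The neighbours of Mmp23 were Lhfpl6 at 0.23, the iron exporter Slc40a1 at 0.24 and the lysyl oxidase family member Loxl2 at 0.29.

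The neighbours of Ctsl and Cstb also shared the highest line of their gene. Nearest to Ctsl were the tropomyosin Tpm1, also on the muscle list, at 0.26, Palm at 0.34 and Fxyd4, a regulator of the sodium pump, at 0.38, and in each of them JB was the highest line on both orientations. Tpm1 stood at -2.16 and -2.37 in JA, -0.58 and -0.44 in JB, and -2.58 and -2.78 in Amy, so its groups of arrays follow those of Ctsl. In Palm and Fxyd4 the order of JA and Amy changed with the dye. Nearest to Cstb were Id2, an inhibitor of helix-loop-helix factors, at 0.14, Tmem53 at 0.15 and B9d1, a protein of the cilium base, at 0.20, and in each Amy was the highest line on both orientations. Since likeness was measured on these same arrays, this shared highest line follows in part from the choice.

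**Figure D4:**
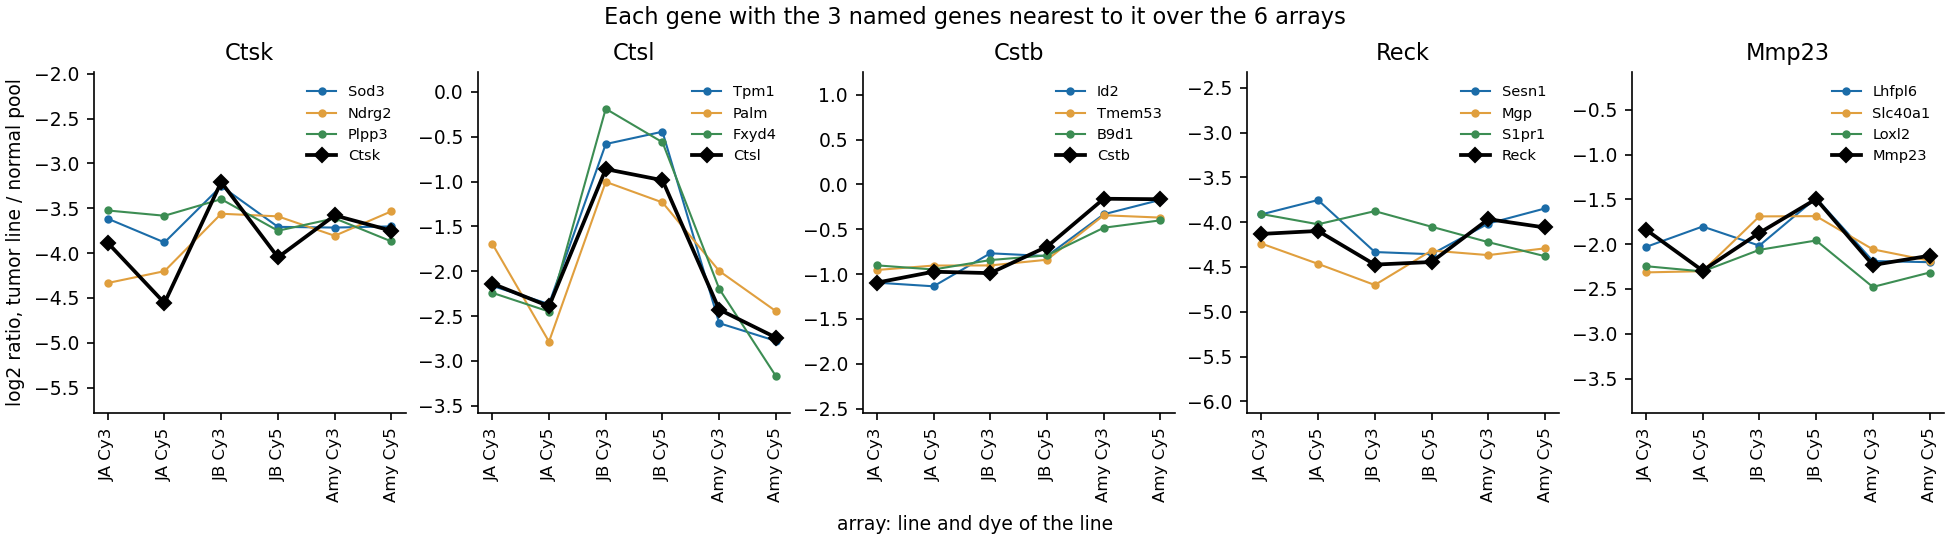
Log2 ratio of tumor line over normal pool (vertical axis, each panel spanning the same number of units) on each of the 6 arrays (horizontal axis, the line and its dye) for each of the 5 genes (black) and its 3 nearest named genes (coloured). JB stands highest in the Ctsl panel and Amy in the Cstb panel.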

How the data were processed

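Values of 3158 named genes and 4022 unnamed clones in 6 two-colour arrays were used: JA, JB and Amy against the normal pool, 2 dye-swapped arrays per line. The authors deposited 1 log ratio per spot and array, taken here as log2. Scanner, background correction, normalization and spot filter are not given in the sources used here, the log base and direction are not stated, and array medians lay between -0.15 and -0.05. The arrays of a line correlated positively, so no sign was changed. Gene symbols came from the platform annotation, and 5 of 5 genes matched RefSeq by gene identifier.

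Duplicate spots and clones of a gene were averaged, then the 2 arrays of a line. Means of 3 lines were tested against 0 with limma 3.58.1 (R 4.3.3, lmFit and eBayes, intercept only), Benjamini-Hochberg over 7180 features, threshold 0.05, with no filter. The pool is 1 sample whose own spread the test leaves out. The p-values therefore reflect only how far these lines spread, with the variance of each feature moderated towards that of all features. The fit was run on simulated data with independent normal errors, their variances drawn from the distribution that the fit itself assumes. The simulation held no shared pool and no dye effect, so it checks the code and not how well the fit describes these data. The small number of lines limits the precision.

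Replicate numbers stand for dye orientation, which the labels give, and the orientation difference correlated between lines at 0.526 to 0.613, so the numbers pair the arrays. Genes, lists and tests were chosen with earlier results of these data known. Named besides the 5 genes were all measured cathepsins, cystatins, MMPs, TIMPs and A2m, up to 4 called genes of 1 sign on all arrays per other list, and the 3 nearest genes. Alternatives were median-centred or quantile-normalized arrays, each orientation alone, each line left out, medians over spots, single clones, no moderation, a spread for the pool, the replicate block, and other thresholds. Figures were drawn with matplotlib 3.10.9.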

Additional observations from a re-analysis of the deposited data

Results flagged for a closer look

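Timp1 moved in opposite directions between lines on every array: Amy was below the pool at -0.61, against 0.69 in JA and 0.51 in JB, a difference of -1.30 to JA and -1.12 to JB. Mmp13 did the same at a smaller size, at -0.24 in Amy, against 0.33 in JA and 0.36 in JB, with differences of -0.57 and -0.59. Ahsg stood at -0.39 in JB, against 0.49 in JA, a difference of -0.89. Clone 3 of Cstb stood at 0.04 in JB, against -0.50 in JA, a difference of 0.54, while the other 2 clones were below the pool in both lines. None of these line differences was tested, since each line is 1 RNA sample.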

How the results depend on the processing

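The means of the 5 genes kept their sign under every alternative run, and all but 1 of these values moved by less than the SD over lines; the exception was Cstb on clone 3 alone, at -0.17. With arrays centred on the median the means were -3.72 for Ctsk, -1.81 for Ctsl, -0.56 for Cstb, -4.08 for Reck and -1.86 for Mmp23. Of 7180 features, 1487 were higher and 2356 lower; 1824 and 2009 with centred arrays, 300 and 740 without moderation of the variances, and 667 and 1303 with a spread for the pool. With each line left out in turn the counts ran from 709 to 1397 higher and from 1367 to 2301 lower, and those of the 69 other protease genes from 18 to 25 lower, fewest without JA. The replicate block gave 1557 higher and 2356 lower features, and 11 higher and 30 lower protease genes; among the named genes it changed 1 call, Ctsc. The dye test called 0 features with any line left out, against 36 with all lines. A size of 1.5 set a line apart in 64 features, against 199 at a size of 1, and in 0 of the 5 genes, against 1. Medians over spots turned Cst3 to -1.02, its clones being of opposite sign. Causes of the other changes were not tested. Without intensities, the limit that dim spots set on the lowest ratios is unknown.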

Other observations

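Of 22 measured lysosome genes, 11 had Amy as the highest line in both dye orientations, as Cstb did, 3 had JA, 3 had JB and in 5 the highest line changed with the dye. This was counted after the values were seen. How often Amy was the highest line over all features was not counted, so no trait of lysosome genes is read from it. Of the 8 proton pump subunits among them, 5 had Amy highest and 2, Atp6v1f and Atp6v1g1, had JB highest. Among those with Amy highest, the membrane protein Lamp2 averaged 0.67 in Amy, against -0.31 in JA and -0.61 in JB, and the pump subunit Atp6v0e1 averaged 0.42 in Amy, against -0.34 in JA and -0.62 in JB. The pump subunit Atp6v1g1 did not share this order, with -0.46 in Amy, against -0.73 in JA and -0.40 in JB. The line with the least reduced Ctsl was JB and that with the least reduced Cstb was Amy. These line differences have no replicate and were not tested.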
